A study of Mus musculus with 16 samples.

Results

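The genes described here are the mouse zinc finger genes named Zfp100 to Zfp599, taken as every row of the promoter and gene-end count tables whose Entrez gene ID maps to a symbol of Zfp and 3 digits, the first of them 1 to 5, on an autosome. Of 149 such symbols, 146 stood in the tables, 5 lay on chromosome X and were left out, and 141 of the 20113 rows remained. A member was called clustered when another gene whose symbol starts with Zfp and a number, antisense transcripts aside, lay within 200 kb of it, and lone otherwise, which gave 75 clustered and 66 lone members. The rule uses no measured value. Chromatin accessibility had been measured by ATAC-seq, a method that inserts sequencing adapters into open DNA with a transposase, in neural stem and progenitor cells of the E12.5 dorsal telencephalon, the source of the neocortex, grown in neurosphere medium. Loss of KAT6B, a histone acetyltransferase, was studied in 4 Kat6b-/- knockout embryos (KO) against 4 Kat6b+/+ wild-type embryos (WT C57BL/6), both on C57BL/6. Gain was studied in 4 embryos with the overexpressing transgene Tg(Kat6b) (Tg) against 4 wild-type embryos (WT FVB x BALB/c), all of FVB x BALB/c hybrid background, since the series text gives the transgene as lethal on C57BL/6. The promoter that drives the transgene, the number of transgenic lines and the sex of the embryos were not stated in the labels. Every library also received a fixed amount of Drosophila S2 cells, whose reads were not analysed here.

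Zfp genes encode proteins with tandem C2H2 zinc fingers, each finger a small fold held by a zinc ion that reads a few bases of DNA. Many carry a KRAB domain, which binds the corepressor TRIM28 and through it the H3K9 methyltransferase SETDB1 and HP1 proteins, and such proteins silence transposable elements and imprinted loci. KRAB zinc finger genes multiplied by local duplication and stand in runs of paralogs that differ between mouse strains, whereas zinc finger genes outside such runs include conserved regulators of neural progenitors. Which members encode a KRAB domain, and how many fingers, was not analysed here.

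Promoters of clustered and lone members differed in sequence, and RefSeq (GRCm38.p6) gave a 300-base promoter, 250 bases before to 50 after the gene's start, for 113 of the 141 members. The median observed/expected CpG ratio, the number of CG dinucleotides over that expected from the base composition, was 0.609 in the 62 clustered members, 0.780 in the 51 lone members and 0.616 over 16035 promoters of all genes. The promoters of 6 members are shown as the 250 bases up to the gene's start, 5' to 3' on the gene's strand, with CG dinucleotides in capitals. They were picked as examples by their change in Tg: the first 4 belong to runs whose members fell, and the last 2 are lone members that rose. Zfp429 and Zfp456 are near copies, with 269 identical bases in the best match of their 300-base promoters.
Zfp429, 8 CG, chr13:67399768-67400017, minus strand: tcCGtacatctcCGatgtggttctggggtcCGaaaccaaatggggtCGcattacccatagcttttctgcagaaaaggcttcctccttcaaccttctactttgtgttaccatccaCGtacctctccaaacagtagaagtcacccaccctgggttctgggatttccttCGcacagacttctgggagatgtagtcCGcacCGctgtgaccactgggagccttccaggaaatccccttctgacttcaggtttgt
Zfp456, 7 CG, chr13:67375764-67376013, minus strand: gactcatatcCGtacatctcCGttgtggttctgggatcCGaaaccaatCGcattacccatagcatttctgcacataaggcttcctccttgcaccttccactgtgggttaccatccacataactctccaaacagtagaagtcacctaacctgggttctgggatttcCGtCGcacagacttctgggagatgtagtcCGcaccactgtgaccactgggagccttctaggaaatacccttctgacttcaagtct
Zfp457, 5 CG, chr13:67306413-67306662, minus strand: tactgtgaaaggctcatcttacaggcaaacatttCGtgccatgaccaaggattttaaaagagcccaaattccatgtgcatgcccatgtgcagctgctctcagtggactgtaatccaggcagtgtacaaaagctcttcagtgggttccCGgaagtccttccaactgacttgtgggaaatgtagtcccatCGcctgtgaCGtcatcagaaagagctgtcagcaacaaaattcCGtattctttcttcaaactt
Zfp120, 5 CG, chr2:150136679-150136928, minus strand: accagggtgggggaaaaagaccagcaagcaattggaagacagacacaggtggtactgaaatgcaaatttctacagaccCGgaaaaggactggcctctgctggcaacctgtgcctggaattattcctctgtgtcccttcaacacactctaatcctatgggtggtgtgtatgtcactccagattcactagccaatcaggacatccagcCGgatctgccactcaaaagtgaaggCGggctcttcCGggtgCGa
Zfp148, 23 CG, chr16:33380525-33380774, plus strand: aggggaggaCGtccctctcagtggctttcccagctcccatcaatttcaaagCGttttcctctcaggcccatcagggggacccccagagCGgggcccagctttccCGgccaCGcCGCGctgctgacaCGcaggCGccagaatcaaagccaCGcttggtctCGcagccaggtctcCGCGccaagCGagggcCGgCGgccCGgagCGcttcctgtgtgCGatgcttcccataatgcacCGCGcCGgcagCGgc
Zfp335, 21 CG, chr2:164911751-164912000, minus strand: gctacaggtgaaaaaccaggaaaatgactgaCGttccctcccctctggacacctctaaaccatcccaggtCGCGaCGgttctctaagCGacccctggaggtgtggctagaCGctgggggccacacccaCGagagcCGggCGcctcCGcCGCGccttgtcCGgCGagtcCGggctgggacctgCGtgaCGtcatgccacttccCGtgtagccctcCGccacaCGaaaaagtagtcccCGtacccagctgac

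These 4 promoters from runs held 5 to 8 CG dinucleotides in 250 bases, and those of the lone members Zfp148 and Zfp335 held 23 and 21, which compares chosen examples only. Short motifs were counted on both strands of the 300-base promoters, with overlaps between motifs allowed. CCGGAA, the core read by ETS factors, stood in 34.5% of members (35.5% of clustered, 33.3% of lone) against 20.0% of all promoters. GGGCGG, read by SP factors, stood in 37.1% of clustered and 60.8% of lone members against 49.1% of all. CCAAT, read by NF-Y, stood in 41.9% of clustered and 35.3% of lone members against 39.1% of all. CACGTG, an E-box, stood in 1.61% of clustered and 13.7% of lone members against 8.29% of all. AAGATGGC, read by YY1, stood in 7.08% of members against 3.34%, TGACGTCA, read by CREB factors, in 6.20% against 2.46%, and the NRF1 motif in 3.54% against 1.43%. These matches are letters in a window and were not tested as binding sites.

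Promoter counts summed to 1384073 to 5014793 per library and gene-end counts to 197164 to 488442, and mean promoter totals were 4519821 in Tg against 2254942 in its WT, and 3190344 in KO against 2453880 in its WT. The Kat6b promoter read 3175 ± 309 CPM (counts scaled to a common effective library total by TMM, SD, n = 4) in Tg and 230 ± 5.39 in its WT, and 298 ± 2.12 in KO against 273 ± 22.9 in its WT. Summed Y-linked signal over regions enriched for H3K4me1 and H3K27ac was 0.458 to 9.01 CPM in Tg. In the libraries of the other groups it was 34.1 to 61.3 CPM. It therefore moves with the Tg comparison, as depth does. Neither can be told apart from the transgene in any Tg value below. Promoters of 7 neural stem and progenitor markers averaged 95.3 to 144 CPM per gene over the libraries, against 5.03 to 10.1 for 5 microglial, 13.1 to 18.3 for 4 endothelial, 20.9 to 31.5 for 3 erythroid, 21.6 to 34.4 for 5 mesenchymal and 25.8 to 40.3 for 4 neuronal markers. Of the neural stem and progenitor markers, 6 rose and Pax6 fell in Tg (4 rose and none fell with the abundance offsets described below), and their part in the members' changes was not tested. In bulk libraries, fewer cells with an open promoter and a less open promoter in each cell cannot be told apart.

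Member promoters were more accessible than the typical promoter. All 141 passed the filter on low counts, and in WT C57BL/6 their median was 54.6 CPM against 35.4 over all tested promoters, with 45.3 for clustered and 70.2 for lone members. Every member's promoter window is 2001 bp long, so levels can be compared between members. The median over all tested promoters includes some windows of other lengths. The highest were Zfp277 (225 ± 26.3 CPM), Zfp143 (211 ± 5.98), Zfp367 (202 ± 2.99), Zfp131 (170 ± 13.8) and Zfp444 (168 ± 8.33), each with n = 4. In that order Zfp143 (207 to 220 CPM) did not overlap Zfp367 (200 to 206), nor Zfp367 Zfp131 (150 to 180), and the other neighbours overlapped. The lowest were Zfp595 (4.08 ± 0.473 CPM), Zfp352 (4.69 ± 0.897) and Zfp235 (5.30 ± 1.59). Near copies make Zfp429, Zfp442, Zfp456, Zfp457 and Zfp534 uncertain, since reads of a paralog could be counted there, and Zfp142, Zfp189, Zfp277, Zfp319, Zfp383, Zfp408 and Zfp526 have another gene's start within 2000 bases, so that gene's reads can fall in their windows.

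Many member promoters changed in Tg, in both directions, with the clustered median below the lone median under each scaling described below. In Tg, 92 of 141 member promoters passed the test (edgeR's quasi-likelihood test, Benjamini-Hochberg adjusted p under 0.05 over 20008 promoters), against 57.3% of all promoters tested. Of these, 46 rose and 46 fell, against 26.9% and 30.5% of all promoters. Among clustered members 13 rose and 31 fell, with a median log2 change of -0.17 (0.891 times). Among lone members 33 rose and 15 fell, with a median of 0.14 (1.10 times), and the median over all promoters was -0.10. Summed over the 75 clustered members, signal was 4435, 4277, 4110 and 4297 CPM in WT FVB x BALB/c and 3765, 3742, 3877 and 3914 CPM in Tg. Over the 66 lone members it was 5067, 4953, 4725 and 4749 CPM in WT and 5454, 5533, 5576 and 5325 CPM in Tg. The groups did not overlap in either sum, clustered being lower and lone higher in Tg.

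The split between rises and falls moved with how libraries were scaled, and the order of the 2 classes did not under the 4 scalings compared. Shares of all promoters called under the other scalings are not given here, so the counts below compare the 2 classes only. With plain library totals 5 clustered members rose and 43 fell, against 26 and 22 lone members. With offsets that remove the trend of change on abundance the counts were 3 and 36 clustered against 19 and 19 lone. With scaling factors taken from gene ends, which move the median of all promoters from -0.10 to 0.32, they were 36 and 18 clustered against 46 and 3 lone. The clustered minus lone median was -0.30 on the log2 scale with TMM and library totals, -0.31 with gene-end factors and -0.26 with the abundance offsets.

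**Figure D1:**
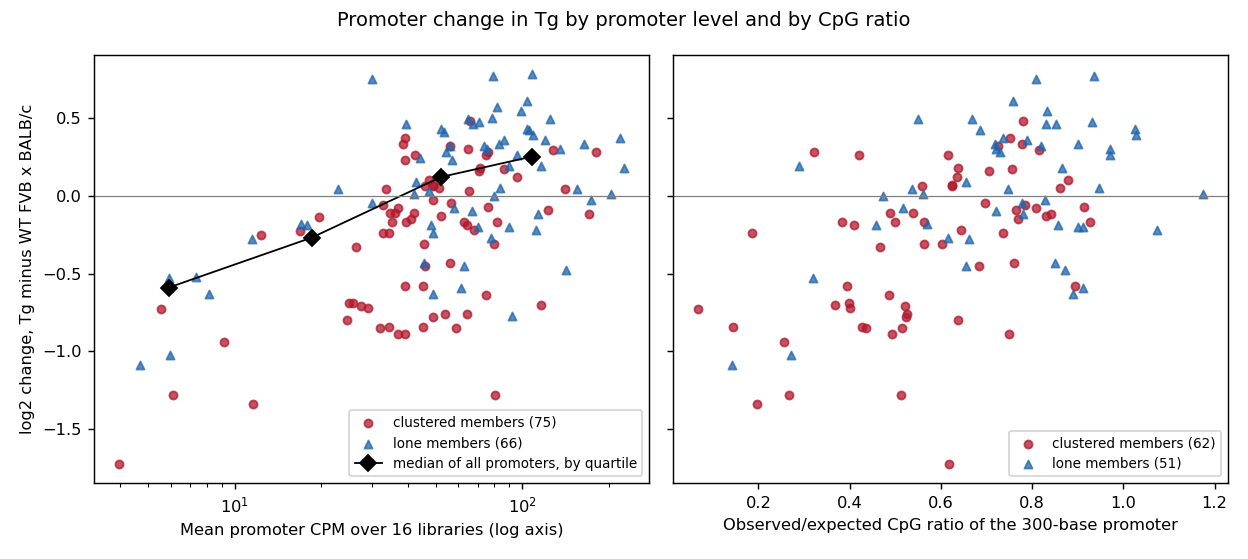
Log2 change of each member's promoter in Tg against WT FVB x BALB/c, plotted against its mean CPM over 16 libraries (left, log axis; diamonds, median of all promoters in each quartile of abundance) and against the observed/expected CpG ratio of its 300-base RefSeq promoter (right; 113 members with a sequence). Clustered members (circles) lie mostly below the medians of all promoters, which run from -0.59 to 0.25, and those with low CpG ratios lie lowest.

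Promoter level and CpG content moved with the class, as the plot of change against level and CpG ratio shows. Over all promoters the median log2 change in Tg was -0.59 in the lowest quartile of mean CPM, then -0.27, 0.12 and 0.25. In the same 4 quartiles the clustered medians were -1.28 (3 members), -0.51 (18), -0.11 (39) and -0.07 (15), and the lone medians were -0.63 (5), -0.12 (6), 0.09 (23) and 0.30 (32). The clustered median lay below both the lone median and that of all promoters in each quartile. In the third quartile 8 clustered members rose and 13 fell, against 38.8% and 20.3% of all promoters there. Among promoters with a CpG ratio below the median of all tested promoters (0.62), 8.12% of all rose and 46.4% fell (median -0.42). There 3 of 33 clustered members rose and 23 fell (median -0.69). Of 12 lone members there 2 rose and 3 fell (median -0.13). At or above that ratio, 47.2% of all promoters rose and 14.3% fell (median 0.16). There 7 of 29 clustered members rose and 6 fell (median -0.06). Of 39 lone members there 21 rose and 8 fell (median 0.26). By number of Zfp neighbours within 200 kb, the median was 0.14 for the 66 members with none, -0.10 for the 26 with 1 or 2, and -0.17 for the 49 with 3 or more, of which 7 rose and 23 fell. The part of level and CpG content in the difference between the classes was not tested beyond these strata.

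In a run of 23 Zfp genes on chromosome 13, every member of the run fell. This is the region of the paralogs of Rsl1, a KRAB zinc finger gene whose product represses sex-limited liver genes in the mouse. The 9 members fell in Tg, with log2 changes of -1.72 to -0.58 and a median of -0.78. Their summed promoter signal was 496, 465, 434 and 463 CPM in WT FVB x BALB/c and 265, 255, 265 and 295 CPM in Tg. It was 387, 386, 376 and 340 CPM in WT C57BL/6 and 330, 358, 354 and 378 CPM in KO. Every Tg library lay below all 12 others, and KO overlapped its WT. Of the 14 other tested Zfp genes in the run, 13 fell, with a median of -0.59. With library totals and with abundance offsets 9 of 9 fell, and with gene-end factors 8 of 9. Of the 8 members of the run with a RefSeq promoter, 8 had a CpG ratio below 0.62. Zfp429, Zfp456 and Zfp457 of this run are near copies, so reads of a paralog could be counted there.

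Zfp457, a member of that run, read 81.0, 79.5, 77.9 and 76 CPM in WT FVB x BALB/c and 46.4, 36.4, 44.2 and 48.0 CPM in Tg. Tg libraries were all lower, by -0.85 ± 0.08 on the log2 scale (SE; 0.556 times; edgeR adjusted p = 3.2e-18). Zfp457 is a near copy, so reads of a paralog could be counted there. Zfp273 read 90.8, 75.4, 77.0 and 80.1 CPM in WT and 46.4, 50.8, 45.0 and 49.9 CPM in Tg, again without overlap (-0.76 ± 0.08, edgeR adjusted p = 9.5e-16). Falls of like size were measured at other genes of the run. Zfp493 fell by 0.76 on the log2 scale, from 68.2 ± 7.09 to 39.9 ± 5.44 CPM, and Zfp455 fell by 0.89, from 49.0 ± 4.38 to 26.0 ± 2.49 CPM (SD, n = 4). Zfp459 fell from 40.0 ± 5.13 to 24.9 ± 1.49 CPM. In WT C57BL/6 it stood at 23.3 ± 1.76 CPM, near the Tg level. Zfp595, the least accessible of the 9, read 4.79 to 10.3 CPM in WT FVB x BALB/c and 1.49 to 2.54 CPM in Tg.

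**Figure D2:**
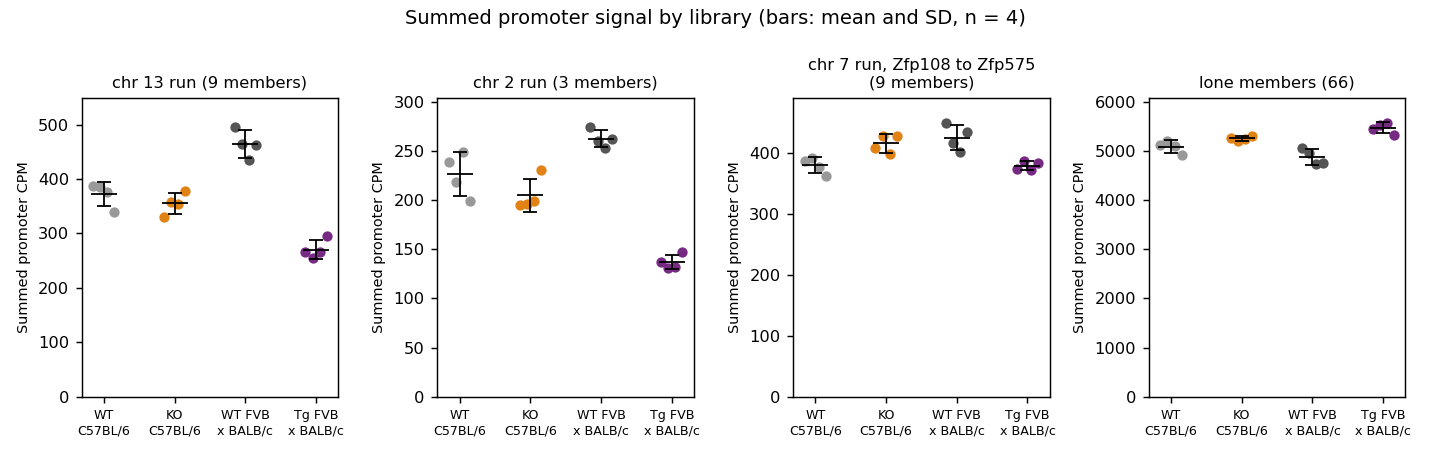
Promoter CPM summed per library over the members of the chromosome 13 run, the chromosome 2 run, the chromosome 7 run from Zfp108 to Zfp575, and the 66 lone members, in the 4 groups (points, libraries; bars, mean and SD, n = 4). Tg libraries are lowest in the chromosome 13 and 2 runs, at 255 to 295 and 131 to 147 CPM, and lone members read 5325 to 5576 CPM in Tg against 4725 to 5067 in its WT.

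A run of 4 Zfp genes on chromosome 2 holds Zfp120, Zfp345 and Zfp442, and all 3 fell in Tg with a median of -1.28. Zfp442 read 112, 102, 97.0 and 106 CPM in WT FVB x BALB/c and 44.6, 43.6, 34.7 and 49.5 CPM in Tg. In WT C57BL/6 it read 96.3, 88.1, 106 and 82.2 CPM, and in KO 76.7, 70.6, 76.7 and 95.7 CPM. Tg libraries were lower than all 12 others, with a fall of -1.28 ± 0.08 on the log2 scale (0.411 times, edgeR adjusted p = 6.3e-30). It is a near copy of Zfp937, its neighbour, so the reads of both cannot be fully told apart. Zfp120, whose promoter was no near copy, read 144, 142, 137 and 137 CPM in WT FVB x BALB/c and 83.7, 81.2, 91.3 and 89.9 CPM in Tg, a fall of -0.70 ± 0.07 (edgeR adjusted p = 2.7e-19). Zfp345 fell from 17.9 to 7.04 CPM in group means. The 3 members with a sequence in this run had a median CpG ratio of 0.37.

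The other runs varied, and their direction in Tg moved with the scaling. On chromosome 7, the run from Zfp108 to Zfp575 held 9 members, of which 6 fell and 1 rose, with a median of -0.69 (6 fell and none rose with abundance offsets, 2 fell and 3 rose with gene-end factors). Zfp108, Zfp109, Zfp111 and Zfp114 fell by 0.69 to 0.80 on the log2 scale, and Zfp428, the most accessible of the run, rose by 0.29. A second chromosome 7 run from Zfp146 to Zfp568 held 7 members, of which 2 rose and none fell, with a median of 0.10 (-0.08 with abundance offsets, 0.51 with gene-end factors). Zfp568, which silences a placental Igf2 transcript in the mouse, stood there at 64.5 ± 7.80 CPM in WT FVB x BALB/c and 66.2 ± 2.84 CPM in Tg (SD, n = 4; edgeR adjusted p = 0.790). In the run from Zfp110 to Zfp446, also on chromosome 7, 3 of 5 fell with a median of -0.22 (0.19 with gene-end factors). In the chromosome 6 run from Zfp212 to Zfp398, 2 of 3 rose with a median of 0.18 (0.02 with abundance offsets). In the chromosome 17 run of 13 Zfp genes none of 3 members passed (median -0.13, and 0.29 with gene-end factors), while 6 of 9 other Zfp genes there fell and 1 rose. Outside the chromosome 13 run, 13 clustered members rose and 22 fell, with a median of -0.13. The 5 near copies all fell, with a median of -0.85. Without near copies and members that share a window, 41 of 129 members rose and 41 fell.

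**Figure D3:**
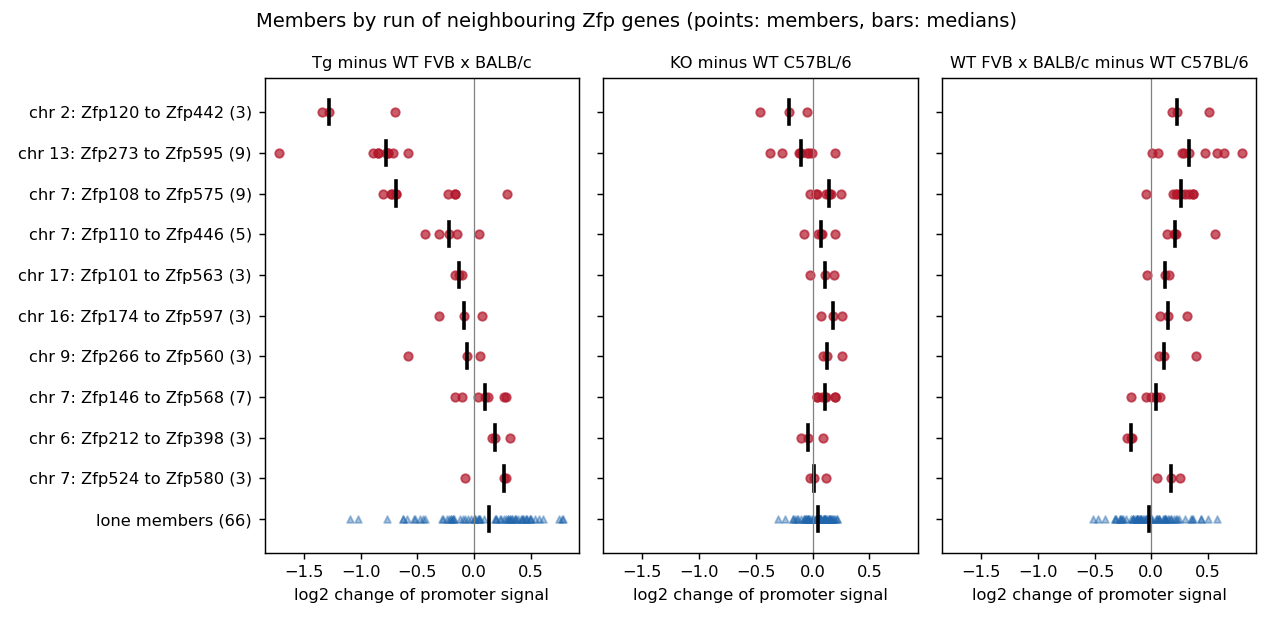
Log2 change of promoter signal for members of the 10 runs that hold 3 or more members (rows, ordered by the Tg median; circles, members; bars, medians) and for the 66 lone members (triangles), in Tg against its WT, KO against its WT, and FVB x BALB/c minus C57BL/6 between the WT groups. The chromosome 2 and 13 runs lie to the left of 0 in Tg with medians of -1.28 and -0.78, and the KO values of all runs lie between -0.46 and 0.26.

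Members outside the 10 runs with 3 or more members also included strong falls. Zfp369, a lone gene on chromosome 13, read 115, 105, 94.8 and 110 CPM in WT FVB x BALB/c and 56.3, 59.2, 65.1 and 68.2 CPM in Tg (-0.77 ± 0.08, edgeR adjusted p = 5e-15). Zfp229, on chromosome 17, fell from 60.7 ± 4.95 to 34.0 ± 4.76 CPM (SD, n = 4). Zfp157, on chromosome 5, fell from 96.7 ± 13.7 to 63.1 ± 6.68 CPM.

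Among the members that rose in Tg were several known regulators. Rises were common over all promoters at such levels. In the highest quartile of mean CPM 62.9% of all promoters rose, and 38.8% in the third. Zfp521 promotes the early neural progenitor state. It read 79.1, 64.4, 77.4 and 89.0 CPM in WT FVB x BALB/c and 135, 143, 132 and 119 CPM in Tg. Tg libraries were all higher, by 0.78 ± 0.07 on the log2 scale (1.72 times, edgeR adjusted p = 6e-21). WT C57BL/6 and KO stood between them, at 107 to 113 and 112 to 117 CPM. Zfp148, which binds GC-rich promoters, read 60.7, 64.0, 57.4 and 53.4 CPM in WT FVB x BALB/c and 107, 109, 103 and 88.4 CPM in Tg (0.77 ± 0.08, edgeR adjusted p = 3.1e-17). Its groups did not overlap, and its promoter, shown above, has 23 CG dinucleotides. Zfp335, a subunit of H3K4 methyltransferase complexes that cortical progenitors need to proliferate, read 77.2, 95.4, 84.4 and 103 CPM in WT and 136, 146, 142 and 118 CPM in Tg (0.61 ± 0.07, edgeR adjusted p = 9.9e-15). It overlaps an antisense transcript, Zfp335os, whose reads cannot be told apart from its own. Zfp143, an activator of housekeeping and small nuclear RNA promoters, read 194, 206, 181 and 192 CPM in WT and 250, 252, 266 and 229 CPM in Tg (0.37 ± 0.05, edgeR adjusted p = 1.5e-09). Zfp592, Zfp142, Zfp395 and Zfp236 rose by 0.49 to 0.57 on the log2 scale without overlap between groups.

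**Figure D4:**
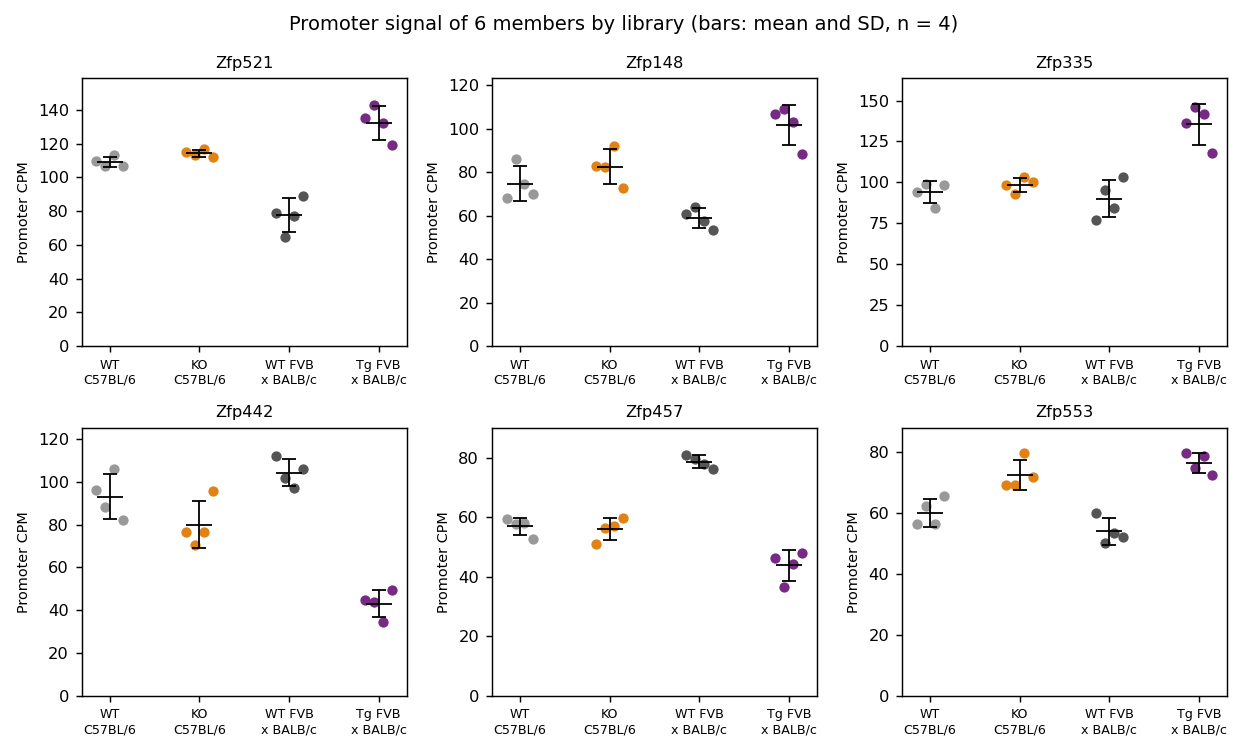
Promoter CPM of 6 members in each library of the 4 groups (points, libraries; bars, mean and SD, n = 4). Zfp521, Zfp148 and Zfp335 are highest in Tg, Zfp442 and Zfp457 (both near copies) are lowest in Tg, and Zfp553 is higher in both KO and Tg than in the matching WT.

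Most other members with a known role changed less. For scale, the median log2 change of all promoters was 0.12 in the third and 0.25 in the highest quartile of mean CPM. Zfp423, a partner of EBF factors needed for the cerebellar midline, rose by 0.42 on the log2 scale, and Zfp281, a regulator of pluripotency genes, rose by 0.36. Zfp207, a kinetochore and spindle protein, rose by 0.46, Zfp384, a nuclear matrix protein, by 0.30, Zfp292 by 0.32, Zfp462, which acts at heterochromatin, by 0.23, and Zfp410, an activator of Chd4, by 0.24. Their edgeR adjusted p ran from 2.8e-08 for Zfp423 to 0.0243 for Zfp410. With abundance offsets the calls of Zfp281, Zfp384, Zfp292, Zfp462 and Zfp410 were lost. After thinning to equal depth those of Zfp423, Zfp207, Zfp384 and Zfp462 were lost. Of 18 alternative settings, Zfp462 lost its call under 7 and Zfp410 under 6. Zfp445, a KRAB protein that keeps imprints with Zfp57, fell from 29.6 ± 3.34 to 23.7 ± 2.52 CPM (SD, n = 4; edgeR adjusted p = 0.0142), though the groups overlapped at 26.1 to 33.8 and 20.7 to 26.8 CPM. Several other members with a known role did not pass. Zfp503, of striatal neurons, stood at 26.0 ± 4.17 and 26.1 ± 1.72 CPM in WT and Tg. Zfp488, which promotes oligodendrocyte fate, stood at 19.2 ± 4.75 and 17.3 ± 2.37 CPM. Zfp536, which restrains neuronal differentiation, stood at 15.1 ± 2.64 and 13.1 ± 1.97 CPM. Zfp217, a partner of CtBP in human cells, stood at 7.34 ± 1.97 and 4.81 ± 1.46 CPM, and Zfp219, a partner of SOX9, at 146 ± 8.90 and 152 ± 8.49 CPM.

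Among the most and least accessible members, Zfp277 rose by 0.18 on the log2 scale (edgeR adjusted p = 0.00314). Zfp367, Zfp131 and Zfp444 did not pass, with log2 changes of 0.01, -0.03 and -0.12. Zfp352 and Zfp235 fell by 1.09 and 0.73, in the lowest quartile of mean CPM, where 50.6% of all promoters fell. Zfp352 lost its call with abundance offsets and after thinning to equal depth, and Zfp235 under 5 of 17 alternative settings. The signs of Zfp277, Zfp367, Zfp131, Zfp444, Zfp445, Zfp219 and Zfp410 depend on the scaling or depth. Replicate 4 of Tg had the highest Y-linked signal of its group, 9.01 CPM against 0.458 to 0.967. It lay nearest to the WT mean of the 4 Tg libraries for 60 of the 92 members called. Other promoters were not counted in this way, so a trait of the members and one of the library cannot be told apart here. Without replicate 4 of Tg 46 members rose and 48 fell.

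Few changes at member promoters were detectable in KO. There, 1 of 141 member promoters passed the test, against 3.99% of all promoters tested. That was Zfp553, which (as did 2.09% of all promoters) rose by 0.26 ± 0.08 on the log2 scale (edgeR adjusted p = 0.0493). It read 56.2, 62.2, 56.2 and 65.6 CPM in WT C57BL/6 and 69.2, 69.2, 79.8 and 71.8 CPM in KO, without overlap. Zfp553 also rose in Tg, as did 26.9% of all promoters. It read 60.1, 50.1, 53.5 and 52.0 CPM in WT FVB x BALB/c and 79.6, 74.8, 78.8 and 72.3 CPM in Tg (0.48 ± 0.08, edgeR adjusted p = 9.5e-08). These libraries are in neither group of the KO contrast, though all 16 libraries were fitted together. The KO call was lost under 15 of 18 alternative settings, with log2 changes of 0.22 to 0.35. At an unadjusted p under 0.05 there were 23 of 141 members, against 17.2% of all promoters, and for 13 of 141 the groups did not overlap, against 10.0% of all promoters. The median log2 change was 0.03 for clustered members, 0.05 for lone members and -0.01 for all promoters. Log2 changes ran from -0.46 to 0.30 over the members.

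Other members crossed the KO threshold when a library or a scaling was changed, and in those fits Zfp553 was not called. Zfp442 fell by 0.31 on the log2 scale without replicate 4 of KO. Zfp277 rose by 0.19 without replicate 3 of WT. Zfp281 and Zfp407 each fell by 0.22 with the abundance offsets. Without replicate 4 of WT, Zfp553 was called and no other member was. In the chromosome 13 run the KO median was -0.10 with no member called.

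Between the wild-type groups, 19 clustered and 13 lone members differed, in directions that moved with the scaling. Set against WT C57BL/6, 32 of 141 member promoters of the FVB x BALB/c wild types passed the test, against 18.7% of all promoters tested. Among clustered members 17 were higher and 2 lower on FVB x BALB/c (median 0.15), and among lone members 2 were higher and 11 lower (median -0.02), against 6.98% higher and 11.8% lower over all promoters (median 0.02). This comparison shares its libraries with both others, so a WT FVB x BALB/c library that reads high adds to a strain rise and to a Tg fall alike. Library names carry different prefixes on the 2 backgrounds, so strain cannot be told apart from any other difference between these library sets. Both were counted on mm39, and the part of sequence differences between strains in the counts was not tested. Zfp459 read 20.8, 24.2, 23.5 and 24.8 CPM in WT C57BL/6 and 47.4, 35.9, 39.2 and 37.6 CPM in WT FVB x BALB/c (0.80 ± 0.13, edgeR adjusted p = 5.3e-08). Zfp457, Zfp157 and Zfp229 were higher by 0.43 to 0.53 on the log2 scale, though these 3 calls were lost after thinning, and those of Zfp457 and Zfp157 also with gene-end factors. Zfp521 was lower on FVB x BALB/c, at 64.4 to 89.0 against 107 to 113 CPM (-0.51 ± 0.08, edgeR adjusted p = 2.4e-08). Zfp433 read 87.8, 75.1, 76 and 76.2 CPM in WT C57BL/6 and 54.4, 48.9, 57.4 and 54.1 CPM in WT FVB x BALB/c, and stayed low in Tg at 45.4 to 48.0 CPM. Zfp516 and Zfp407 were lower by 0.41 and 0.28. With library totals 25 clustered members were higher and 1 lower, against 4 and 7 lone, and with abundance offsets 23 and 1 clustered against 7 and 6 lone. With factors from gene ends, which move the median of all promoters to -0.19, 4 clustered members were higher and 11 lower, and 0 lone members were higher and 28 lower. After thinning all libraries to equal depth 5 members were called between strains. Shares of all promoters called under these alternatives are not given here.

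Gene-end windows of 1001 bp gave little power, with a median of 8 to 17 counts per library. Of the 141 members 99 passed the filter there and 42 did not. In KO none of the 99 passed the test against 1.52% of gene ends tested, with 4 at an unadjusted p under 0.05 (9.15% of all gene ends) and 0 by DESeq2 and by limma-voom. In Tg 1 of 99 passed, against 6.27% of gene ends tested (1.64% fell). That was Zfp317, which held 11, 11, 15 and 6 counts in WT FVB x BALB/c and 7, 5, 5 and 5 in Tg, or 32.6, 38.2, 49.9 and 31.3 against 20.2, 13.6, 12.3 and 11.6 CPM. The groups did not overlap in CPM, and the fall was -1.41 ± 0.39 on the log2 scale (edgeR adjusted p = 0.00817). Its promoter fell by 0.22 on the log2 scale, and with gene-end factors was 0.21 higher. The gene-end call was lost with DESeq2, with abundance offsets (where Zfp329 was called, at -0.52) and without replicate 3 of WT. Median log2 changes in Tg at gene ends were -0.19 for 48 clustered members, -0.09 for 51 lone members and -0.02 for all gene ends.

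Genes of the machinery that KRAB zinc finger proteins recruit were examined at 18 promoters. In Tg 11 rose and 1 fell, with a median log2 change of 0.20 (5 rose and 6 fell with library totals, 5 and 4 with abundance offsets, 15 and 0 with gene-end factors). With TMM, 26.9% of all promoters rose and 30.5% fell, and 62.9% and 10.6% in the highest quartile of mean CPM. In that quartile lie 10 of the 18. In KO 2 rose, with a median of -0.01, and none passed with abundance offsets or gene-end factors. Trim28, the KRAB corepressor, rose in Tg from 160 to 180 CPM (0.16 ± 0.06, edgeR adjusted p = 0.0115), though its change was -0.08 with abundance offsets. Setdb1 rose by 0.30, a call lost with library totals. Cbx3, encoding an HP1 protein, rose in both KO (0.20 ± 0.06, edgeR adjusted p = 0.0185) and Tg (0.80 ± 0.06, edgeR adjusted p = 5.35e-31). Uhrf1, which recruits maintenance methylation, rose in KO by 0.25 (edgeR adjusted p = 0.0194). Dnmt3a, a de novo DNA methyltransferase, rose in Tg by 0.64, and Smarcad1, a chromatin remodeller, fell by 0.33 (0.10 higher with gene-end factors). The remaining genes of the list that rose in Tg were Atf7ip, Cbx1, Cbx5, Mphosph8, Tasor, Morc2a and Morc3, by 0.19 to 0.46. With abundance offsets Atf7ip (-0.03), Cbx5 (0.04), Mphosph8 (0.0), Tasor (0.1) and Morc3 (0.0) did not pass, and Cbx1 and Morc2a did. Chaf1a, Chaf1b, Dnmt1, Dnmt3b, Uhrf1 and Pphln1 did not pass in Tg with TMM. With abundance offsets Chaf1a (-0.21), Chaf1b (-0.34) and Uhrf1 (-0.35) were called lower. Library totals gave lower calls for Chaf1a, Chaf1b, Uhrf1, Dnmt1 and Dnmt3b. Gene-end factors gave higher calls for Chaf1a, Chaf1b, Uhrf1 and Pphln1.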

How the data were processed

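Values deposited by the authors are whole read counts in promoter windows and gene-end windows for 16 libraries. Promoter windows are 2001 bp long except in 1357 rows, none of them members, and gene-end windows are 1001 bp long. Counts in regions enriched for H3K4me1 and H3K27ac served only for the Y-linked signal. Counting used featureCounts and mm39, per the submitters' processing notes. Aligner and read filters were not given in the sources used here. All 48 files of single samples held the values of the series columns, and a RefSeq table of GRCm38.p6 named 20091 of 20113 gene IDs and served for names, neighbours and promoter sequences.

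Rows on chromosome Y and Xist and Tsix (17) were left out. After filterByExpr and TMM scaling, 20008 promoters and 15186 gene ends entered edgeR 4.0.16 quasi-likelihood fits (limma 3.58.1, R 4.3.3) of all 16 libraries, with a coefficient per group and Benjamini-Hochberg adjustment over each table at 0.05. On counts simulated for Tg, the test recovered 92% of 2-fold and 70% of 1.5-fold changes over 19951 promoters (5.81% of calls false), and 43% and 8% over 14277 gene ends. The simulation changed few rows, as many up as down, without the trend on abundance seen in Tg. Its share of false calls is therefore no error rate of the Tg calls. Biological coefficients of variation were 0.0378 (promoters) and 0.0777 (gene ends). No replicate pair looked like a library deposited again (lowest chi-square per degree of freedom 1.05 and 1.04). Each sample is a separate embryo per the series design. CPM are TMM-normalised except for the Y-linked signal, and errors of log2 changes are SE. Precision is limited by the depth of each library.

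A run is a chain of Zfp genes with gaps under 200 kb. Near copies share at least 240 of 300 promoter bases with another gene by blastn 2.17.0+. The promoter nearest the gene's 5' end was used where RefSeq lists several. Medians over classes and runs carry no test. Named members were, by smallest p among calls with a mean CPM of at least 5 and groups that do not overlap, up to 8 rises and 8 falls in Tg and KO promoters and up to 4 each at gene ends and between strains, with the 5 highest and 3 lowest levels, 18 members of known role and those called in both KO and Tg. Members named as examples of a run, and those lost or gained under other settings, were chosen after their values were seen. The members and lists were chosen with earlier results of these data known. Alternatives were other scalings (library totals, abundance offsets, gene-end factors), DESeq2 1.42.0, limma-voom, other filters, thinning, other neighbour distances, a replicate block and leaving out each library.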

Additional observations from a re-analysis of the deposited data

Results flagged for a closer look

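In 10 of 228 groups of 4 libraries examined, 1 library stood apart from the other 3 by Dixon's 95% criterion for 4 values. Chance flags about 1 in 20 groups. Among named members, Zfp229 read 68.1 CPM in replicate 2 of WT FVB x BALB/c against 57.4 to 59.1 in the others. Zfp433 read 87.8 CPM in replicate 1 of WT C57BL/6 against 75.1 to 76.2. Zfp516 read 123 CPM in replicate 3 of WT C57BL/6 against 105 to 107, and 105 CPM in replicate 2 of KO against 115 in each of the others. Zfp444 read 156 CPM in replicate 4 of WT C57BL/6 against 171 to 173, and Zfp488 read 19.4 CPM in replicate 3 of KO against 15.2 to 15.5. Summed over runs, the chromosome 2 run reached 230 CPM in replicate 4 of KO against 195 to 199. The chromosome 6 run reached 234 CPM in replicate 3 of Tg against 198 to 202. The chromosome 7 run from Zfp146 to Zfp568 reached 390 CPM in replicate 3 of WT C57BL/6 against 421 to 425. Y-linked signal over regions enriched for H3K4me1 and H3K27ac was 9.01 CPM in replicate 4 of Tg against 0.458 to 0.967 in the others.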

How the results depend on the processing

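Of the alternatives run for named members, 2246 kept their direction and side of the threshold, 52 gained a call, 86 lost one and 10 reversed. At promoters the count of KO members called, 1, became 0 with library totals, DESeq2, limma-voom, a mean CPM of at least 5, thinning, gene-end factors and the replicate block, and 2, both lower, with abundance offsets. Leaving out 1 library gave 0 to 1 in KO, 82 to 94 in Tg (92 with all) and 26 to 32 between strains (32 with all). Thinning to equal depth left 47 Tg calls and 5 strain calls. The alternatives also change calls at other promoters, whose shares are not given here. With library totals 31 members rose and 65 fell in Tg, with abundance offsets 22 and 55, and with gene-end factors 82 and 21. Between strains these scalings gave 29 and 8, 30 and 7, and 4 and 39. The clustered minus lone median at promoters in Tg, -0.30, was -0.24 after thinning, -0.21 with neighbours within 100 kb, -0.19 within 500 kb, -0.20 counting members alone as neighbours, -0.34 to -0.25 leaving out 1 library, and, chosen after seeing the data, -0.19 without near copies and shared windows and -0.27 without the chromosome 13 run. In KO it was -0.02, and -0.04 to 0.01 leaving out 1 library. At gene ends, KO calls were 0 to 1 leaving out 1 library (Zfp296 rose without replicate 3 of KO). Tg calls there, 1, were 3 with library totals, 0 with DESeq2, 2 with no filter, 2 with a mean CPM of at least 5, 0 after thinning and 0 to 2 leaving out 1 library. The clustered minus lone median at gene ends, -0.10, was 0.14 after thinning (27 members left) and -0.21 to -0.03 leaving out 1 library. In the chromosome 13 run 8 or 9 members fell in Tg under every alternative run.

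At promoters in Tg, abundance offsets reversed Zfp407 (-0.04), Zfp277 (-0.05), Zfp367 (-0.23) and Zfp219 (-0.20), library totals reversed Zfp367 (-0.11), gene-end factors reversed Zfp317 (0.21), Zfp131 (0.40), Zfp444 (0.30) and Zfp445 (0.08), and thinning reversed Zfp410 (-0.05). The cause was not tested. The replicate numbers do not pair the samples: deviations of same-numbered libraries correlated at -0.111 to 0.058 at promoters in KO and Tg and at 0.015 to 0.179 between strains, where number 4 had the highest and the others at most 0.047. With the replicate block 89 members were called in Tg (47 higher, 42 lower) and 37 between strains. The depth of gene ends limits them to large changes.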
